A study of Arabidopsis thaliana with 3 samples.

Results

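The 10 genes described here are the core of the iron uptake system of Arabidopsis thaliana: the uptake genes IRT1 and FRO2, the regulators FIT, bHLH38, bHLH39, bHLH100, bHLH101 and BTS, and the peptide genes IMA1 and IMA2. They were taken as listed loci, and all 10 were found among the 27374 loci with a value. They were chosen by their FPKM in these libraries, as genes whose values differed from library to library, so those differences are given as a description, with no test. The values come from 3 RNA-seq libraries of whole wild-type Col-0 seedlings, the reference accession, collected at 9 days of age after growth on MS plates kept at 23 °C under a day of 16 h and a night of 8 h. No mutant, no treatment and no second iron supply is among them, so the comparisons are between genes within these seedlings and between libraries. Separate cultures are not stated in the labels, so SDs measure the spread between these libraries, which may be technical, and p-values rest on these libraries alone. Root and shoot were harvested together, so that a lower level can stand for fewer expressing cells or for less RNA per cell, which cannot be told apart here. In libraries 1, 2 and 3, 17665, 17562 and 17738 nuclear genes had at least 1 FPKM, and nuclear genes held 29.8%, 29.4% and 30.8% of the summed FPKM, the rest being mainly of chloroplast genes.

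Plants such as Arabidopsis take up iron by reduction. The ferric chelate reductase FRO2 at the root surface makes ferrous iron, which IRT1 carries into epidermal cells. The bHLH transcription factor FIT activates both genes together with the bHLH proteins of subgroup Ib (bHLH38, bHLH39, bHLH100 and bHLH101), whose own genes are induced when iron is short. BTS is a ubiquitin ligase with iron-binding hemerythrin domains that acts against the response by targeting bHLH factors of another subgroup, to which ILR3 and bHLH115 belong. IMA1 and IMA2 encode very short peptides that promote the response and bind BTS.

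All 10 genes are nuclear and protein-coding in the RefSeq annotation of TAIR10.1, and several lie in pairs. IMA2 (AT1G47395, chromosome 1, 17382998 to 17383830) and IMA1 (AT1G47400, chromosome 1, 17385707 to 17386485) follow each other on the plus strand, 1876 bases apart. Both have 1 exon and a coding sequence of 153 bases, identical at 88.9% of positions. bHLH38 (AT3G56970, chromosome 3, 21084035 to 21085245) and bHLH39 (AT3G56980, 21086390 to 21087710) are both on the minus strand, 1144 bases apart, and 83.1% of their aligned coding positions are identical. None of the 10 transcripts had a match of 90% identity or more elsewhere in the TAIR10.1 genome. The longest match of IMA2 was to IMA1, over 499 bases at 77.6% identity. The 3' part of bHLH38 overlaps PIP5K4 on the other strand and that of bHLH101 overlaps GLU1. The libraries were strand-specific, but whether strand was used in the estimates is not given in the sources used here.

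The sequence just before the gene start is shown for 6 members because these genes include the tandem pairs, the 3 subgroup Ib genes whose values differed most between libraries, and the member that differed little at a high level. Each sequence is the 250 bases before the RefSeq gene start in TAIR10.1, with capitals for every E-box, CANNTG, the core to which bHLH proteins bind. This pattern reads the same on both strands and includes the G-box, CACGTG.
IMA1 (chr1:17385457-17385706, plus strand): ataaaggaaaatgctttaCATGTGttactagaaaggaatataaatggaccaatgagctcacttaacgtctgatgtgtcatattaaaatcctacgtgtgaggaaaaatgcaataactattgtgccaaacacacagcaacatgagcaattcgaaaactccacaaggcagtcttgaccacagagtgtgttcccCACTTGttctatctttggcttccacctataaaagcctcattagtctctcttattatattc
IMA2 (chr1:17382748-17382997, plus strand): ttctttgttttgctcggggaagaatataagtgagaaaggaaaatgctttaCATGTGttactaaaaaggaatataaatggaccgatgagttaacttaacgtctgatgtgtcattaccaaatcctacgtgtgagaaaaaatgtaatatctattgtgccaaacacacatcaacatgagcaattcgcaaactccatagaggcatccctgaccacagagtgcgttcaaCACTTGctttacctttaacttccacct
bHLH38 (chr3:21085246-21085495, minus strand): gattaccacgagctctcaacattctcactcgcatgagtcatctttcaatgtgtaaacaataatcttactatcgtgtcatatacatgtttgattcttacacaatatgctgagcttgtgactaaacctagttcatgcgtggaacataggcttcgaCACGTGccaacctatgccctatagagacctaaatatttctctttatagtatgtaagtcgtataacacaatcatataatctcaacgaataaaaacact
bHLH39 (chr3:21087711-21087960, minus strand): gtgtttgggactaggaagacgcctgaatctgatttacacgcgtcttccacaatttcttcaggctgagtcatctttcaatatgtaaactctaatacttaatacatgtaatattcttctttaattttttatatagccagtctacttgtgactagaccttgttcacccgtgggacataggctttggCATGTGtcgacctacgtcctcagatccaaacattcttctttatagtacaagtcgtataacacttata
bHLH100 (chr2:17199455-17199704, minus strand): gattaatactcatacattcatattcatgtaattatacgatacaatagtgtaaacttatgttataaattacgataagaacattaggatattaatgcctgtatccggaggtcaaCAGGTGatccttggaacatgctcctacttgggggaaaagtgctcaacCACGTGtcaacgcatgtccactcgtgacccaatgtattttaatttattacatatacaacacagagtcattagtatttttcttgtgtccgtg
BTS (chr3:6273716-6273965, plus strand): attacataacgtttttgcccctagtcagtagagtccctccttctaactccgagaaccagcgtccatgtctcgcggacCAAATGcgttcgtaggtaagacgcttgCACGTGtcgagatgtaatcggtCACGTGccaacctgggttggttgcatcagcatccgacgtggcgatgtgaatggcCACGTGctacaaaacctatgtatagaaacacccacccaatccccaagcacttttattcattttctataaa
The IMA1 and IMA2 sequences aligned over 218 columns with 88.1% identity, and both hold CATGTG and CACTTG. Those of bHLH38 and bHLH39 aligned over 193 columns with 74.6% identity, and their single E-boxes differ, as CACGTG in bHLH38 and CATGTG in bHLH39. An E-box was present in 7 of the 10 members, against 55.3% of 27443 nuclear protein-coding genes, and a G-box in 3 of 10 (bHLH38, bHLH100 and BTS), against 6.49%. The BTS sequence alone holds 3 G-boxes. The windows of IRT1, FRO2 and bHLH101 hold no E-box. A match of letters does not show binding, and its absence covers these 250 bases only.

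The uptake genes were expressed at a low level. IRT1 (AT4G19690, chromosome 4, 10707344 to 10709015, plus strand), the iron transporter, had 2.03 FPKM (fragments scaled by transcript length and library size, summed over the transcripts of a gene) in library 1, 0.948 in library 2 and 2.90 in library 3. Library 2 was thus lowest, and library 3 exceeded it 3.06-fold. On the log2(FPKM + 1) scale, which is used for all differences below and understates those of low genes, the highest and lowest library of IRT1 were 1.002 apart, a distance called the range from here on. FRO2 (AT1G01580, chromosome 1, 208995 to 213082, plus strand), the reductase, had 0.872, 0.791 and 1.04 FPKM in libraries 1, 2 and 3. Its libraries stood in the same order as those of IRT1, but only 0.19 apart. From the steps between low values, about 40, 19 and 52 fragments were estimated for IRT1 in libraries 1, 2 and 3, for which counting alone gives an error of 15.9%, 22.8% and 13.8%. For FRO2 the estimates were 40, 35 and 49 fragments. IRT2 (AT4G19680), the neighbouring paralog of IRT1, had 0.766, 0.592 and 0.720 FPKM.

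The short transcript model of IRT1 differed more between libraries than the long one. The deposited values cover AT4G19690.2, with 3 exons and 1479 bases, and AT4G19690.1, a single exon of 782 bases that runs from the first exon into the first intron. The 3-exon transcript had 1.17 FPKM in library 1, 0.657 in library 2 and 1.17 in library 3, so that libraries 1 and 3 were alike for it. The single-exon transcript had 0.857, 0.290 and 1.73 FPKM, a 5.95-fold difference between libraries 3 and 2. Only part of the 19 fragments estimated for the gene in library 2 belongs to this transcript, so the difference rests on few fragments. The single-exon transcript made up 42.3%, 30.7% and 59.6% of the IRT1 value in libraries 1, 2 and 3. The models overlap over most of the shorter one, and the division of fragments between them is an estimate.

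**Figure D1:**
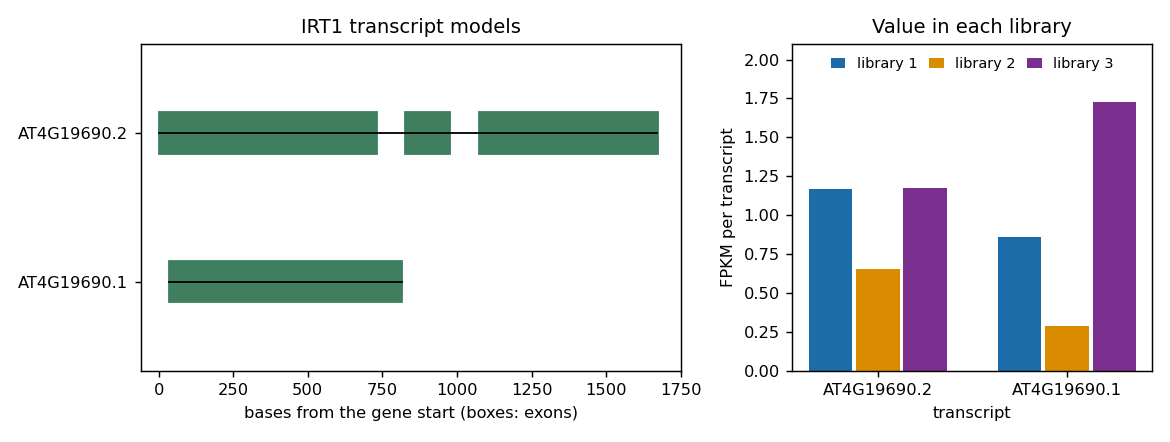
Left, the exons (boxes) of the 2 IRT1 transcript models by distance from the gene start in bases. Right, the FPKM of each transcript in libraries 1, 2 and 3, where the 3-exon transcript has 1.17 FPKM in both libraries 1 and 3 and the single-exon transcript ranges from 0.290 in library 2 to 1.73 in library 3.

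FIT (AT2G28160, chromosome 2, 12004658 to 12006276, plus strand, named FRU in the gene table), the factor that activates IRT1 and FRO2, was the most even of the 10 genes. It had 1.52, 1.53 and 1.67 FPKM in libraries 1, 2 and 3, a range of 0.08. The subgroup Ib genes, which encode its partners, were uneven. bHLH38 had 0.836 FPKM in library 1, 1.01 in library 2 and 2.22 in library 3, 0.81 apart. Library 3 stood above the other two, which were close to each other. bHLH100 (AT2G41240, chromosome 2, 17198037 to 17199454, minus strand) had the same order at a lower level, with 0.376, 0.486 and 1.07 FPKM and a range of 0.59. Its shorter transcript, AT2G41240.2, had 0.289 FPKM in library 3 and was listed at 0 in the other two. bHLH39 had 1.003 FPKM in library 1, 0.560 in library 2 and 1.49 in library 3, a range of 0.68 with library 2 lowest as for IRT1. bHLH101 (AT5G04150, chromosome 5, 1138410 to 1139633, minus strand) had 5.89, 5.31 and 7.24 FPKM in libraries 1, 2 and 3. By these values bHLH101 was the most abundant and the most even of the subgroup, with a range of 0.38. Its gene overlaps GLU1 on the other strand, which averaged 202 FPKM. Whether fragments of GLU1 entered the bHLH101 values was not tested. The values of the other 3 rest on few fragments, with estimates of 15, 17 and 41 for bHLH38, 20, 11 and 31 for bHLH39, and 7, 9 and 19 for bHLH100.

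BTS (AT3G18290, chromosome 3, 6273966 to 6280562, plus strand), the ubiquitin ligase that restrains the response, had the highest level of the 10 genes, at 41.4, 39.4 and 43.5 FPKM in libraries 1, 2 and 3. It differed little between libraries, with a range of 0.14, and ranked above 92.3% of nuclear genes in mean level. FIT ranked above 38.8% and IRT1 above 41.1%.

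The peptide genes were of intermediate to high level and differed strongly between libraries. IMA1 had 11.5 FPKM in library 1, 7.45 in library 2 and 15.6 in library 3, a range of 0.98. IMA2 had 24.2, 12.4 and 21.7 FPKM, a range of 0.91. Library 2 was lowest for both, while library 3 was highest for IMA1 and library 1 for IMA2, the one member for which library 3 did not lead. About 140, 88 and 198 fragments were estimated for IMA1 in libraries 1, 2 and 3, and 320, 158 and 296 for IMA2, so that counting alone gives errors of at most 10.7% and 7.96%. Both transcripts are short, at 779 and 833 bases in the RefSeq annotation, and FPKM of short transcripts depends on the fragment length assumed. IMA3 (AT2G30766), the third gene for a peptide of this family and not one of the 10, had 26.2 FPKM in library 1, 14.2 in library 2 and 30.3 in library 3. Its range was 1.04, again with library 2 lowest, and it shares only 51.9% of aligned coding positions with IMA1. Most of its value, between 79.1% and 91.1%, came from transcript AT2G30766.1, and its annotated gene overlaps 2 genes on the other strand.

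**Figure D2:**
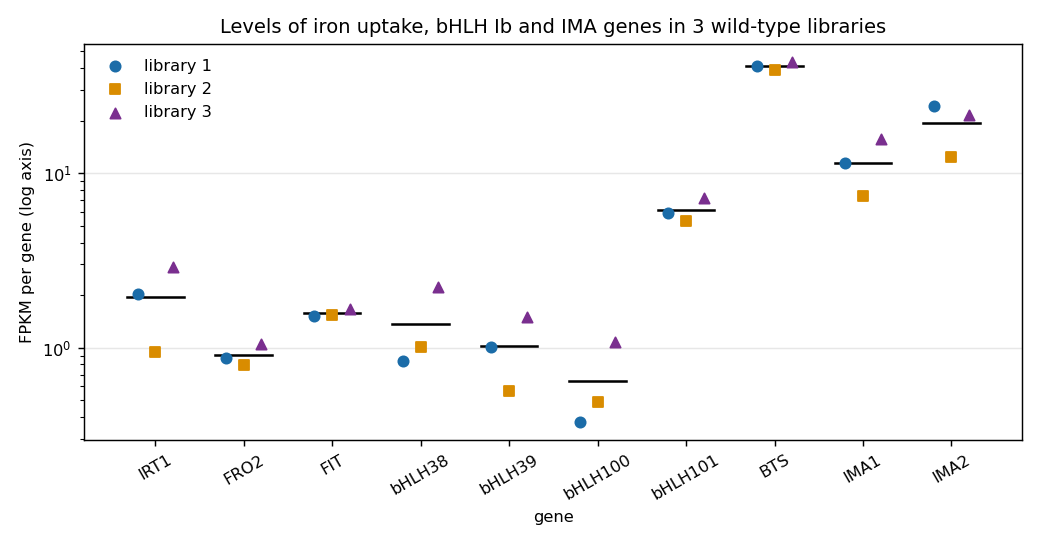
FPKM of the 10 genes (log axis) in libraries 1, 2 and 3, with 1 symbol per library and a bar for the mean of the 3 libraries. BTS lies near 41.4 FPKM, IMA2, IMA1 and bHLH101 average 19.4, 11.5 and 6.15 FPKM, and the other 6 genes lie near or below 3 FPKM.

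In mean level the 10 genes formed 2 tiers, and 5 of them reached 1 FPKM in every library, against 63.2% of all nuclear genes. BTS, at 41.4 ± 2.07 FPKM (SD, n = 3), was followed by IMA2 at 19.4 ± 6.21, IMA1 at 11.5 ± 4.09 and bHLH101 at 6.15 ± 0.991. Each of these stood above the next, and bHLH101 above IRT1, in 3 of 3 libraries and by more than the SD of the difference. The lower tier held IRT1 at 1.96 ± 0.979 FPKM, FIT at 1.57 ± 0.0844, bHLH38 at 1.36 ± 0.755, bHLH39 at 1.02 ± 0.466, FRO2 at 0.902 ± 0.128 and bHLH100 at 0.645 ± 0.374. Within it, no neighbours in the order differed by more than the SD of their difference, and each neighbouring pair changed order in 1 of the 3 libraries.

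Within the subgroup and the pairs of related genes, 7 differences in level were compared within libraries. bHLH101 exceeded bHLH100 by 2.13 ± 0.17 (SD, n = 3) in log2(FPKM + 1), in 3 of 3 libraries, and bHLH39 lay below bHLH101 by a difference of -1.84 ± 0.15, also in 3 of 3. The difference of bHLH39 from its tandem neighbour bHLH38 was -0.20 ± 0.29, with the opposite sign in library 1. IMA1 differed from IMA2 by -0.71 ± 0.29, negative in 3 of 3 libraries. FRO2 differed from IRT1 by -0.58 ± 0.42 and IRT1 from IRT2 by 0.75 ± 0.45, each with 1 sign in all 3 libraries. Both depended on the sum over the IRT1 transcripts: with only the highest transcript per locus they were -0.06 and 0.41. BTS exceeded FIT by 4.04 ± 0.04, the difference with the smallest SD of the 7. An exact permutation test by flipping signs (two-sided) returned p = 0.5 for bHLH39 against bHLH38 and p = 0.25 for the other 6, with Benjamini-Hochberg adjusted values of 0.5 and 0.292. For FRO2 against IRT1 with the highest transcript, the exact p was 0.75. With 3 libraries 0.25 is the smallest p that this test can give, so no difference could pass 0.05.

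Set side by side, the libraries stood in a similar order in most members. Library 3 was highest in 9 of the 10 genes, where it was highest in 39.1% of the 17678 nuclear genes averaging 1 FPKM or more and in 32.1% of all 27164. Library 2 was lowest in 7, against 44.2% and 35.2% of those genes. Library 1 was lowest in the other 3 members, FIT, bHLH38 and bHLH100, against 28.6% of the genes averaging 1 FPKM or more. All 10 genes were higher in library 3 than in library 2, against 59.6% of the genes averaging 1 FPKM or more, with a median difference of 0.03, and 48.2% of all nuclear genes, many of them at 0. The median difference of the 10 genes was 0.58. The 10 genes were selected with these values known, so the shares are given beside the counts and nothing is read from them. The size of the difference varied widely. IRT1, IMA1, IMA2, bHLH38, bHLH39 and bHLH100 ranged from 1.002 to 0.59, bHLH101 lay at 0.38, and FRO2, BTS and FIT at 0.19 or less. The median of the 10 was 0.63, beside 0.14 over all nuclear genes, and that of the 8 members averaging 1 FPKM or more was 0.74, beside 0.16 over the nuclear genes at that level.

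**Figure D3:**
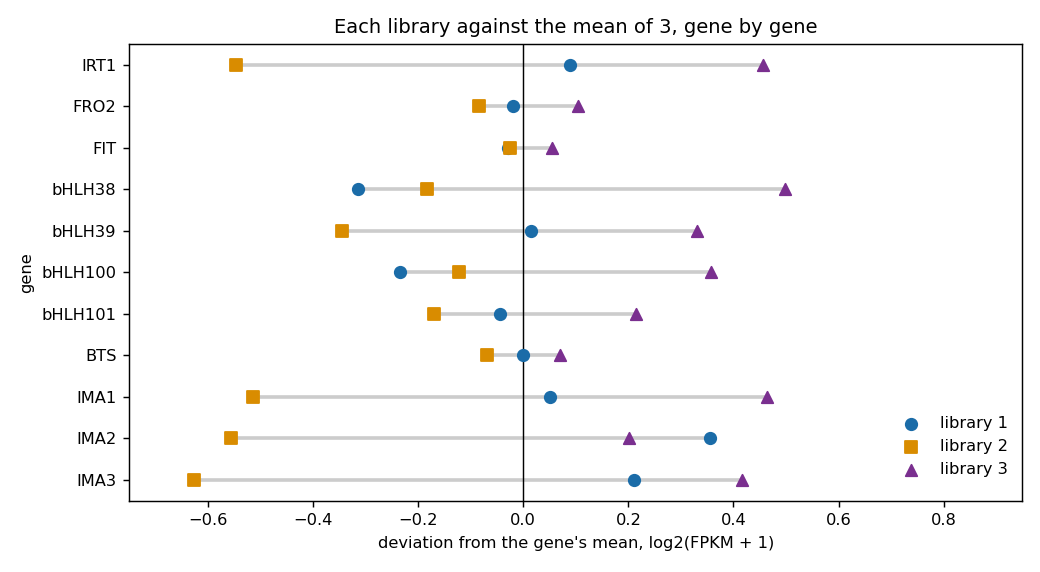
Deviation of each library from the mean of the 3 libraries, in log2(FPKM + 1), for the 10 genes and IMA3, with 1 symbol per library. Library 3 lies above the mean for all 11 genes, and library 2 is lowest for IRT1 and the IMA genes, while library 1 is lowest for bHLH38 and bHLH100.

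A range above 1 was reached by 1 of the 10 genes, IRT1, where 0.651% of nuclear genes averaging 1 FPKM or more passed it. IRT1 was just inside this limit and IMA1, at 0.98, just outside it. The count was 0 without library 2, without library 3 or with other scalings, and 5 with a pseudocount of 0.1. Counted as a ratio of FPKM with no pseudocount, 5 of the 10 (IRT1, bHLH38, bHLH39, bHLH100 and IMA1) had a highest library more than 2 times the lowest, against 1.98% of the same nuclear genes. Low genes vary more: among the 4433 nuclear genes with a mean from 0.5 to 3 FPKM, the class of the lower tier, 2.12% had a range above 1, 13.7% passed the ratio of 2 and the median range was 0.25. Among the 10483 genes from 5 to 50 FPKM, the class of bHLH101, BTS and the IMA genes, 0.353% had a range above 1, 0.467% passed the ratio of 2 and the median range was 0.15. The ranges of IMA1 and IMA2 were above 0.68, the 99th percentile of that class. The range of IRT1 was below 1.26, the 99th percentile of the lower class, and above its 95th, 0.72.

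**Figure D4:**
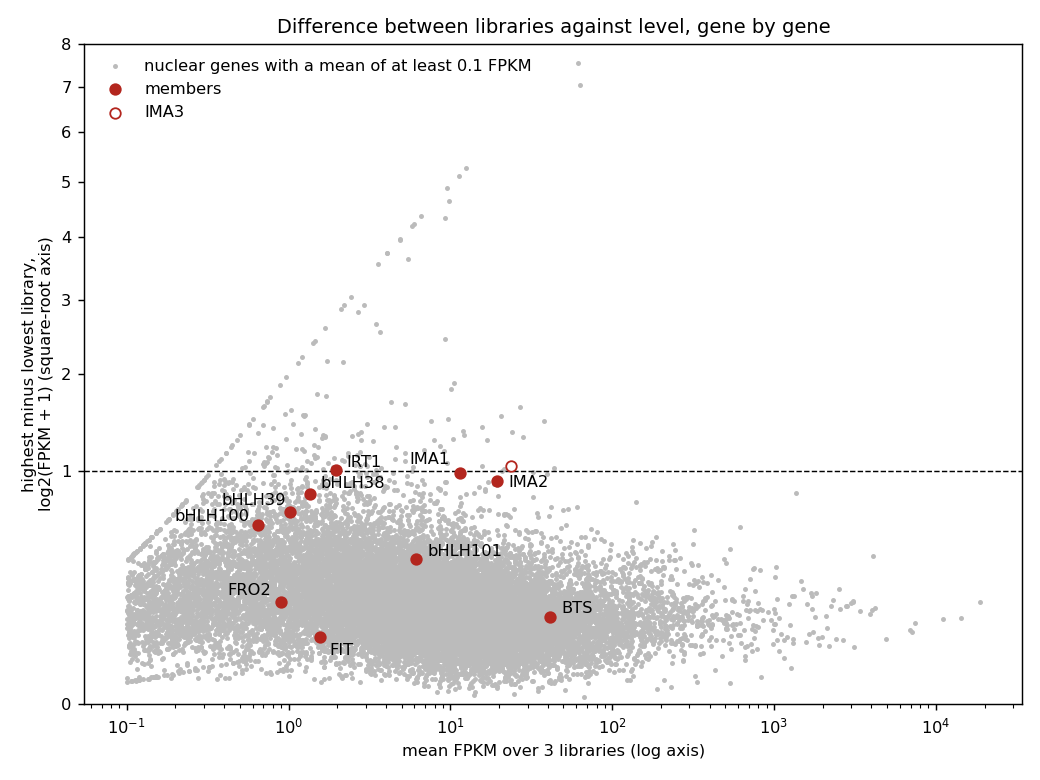
Difference between the highest and lowest library in log2(FPKM + 1) (square-root axis) against mean FPKM (log axis) for nuclear genes (grey), the 10 genes (red) and IMA3 (open circle), with a dashed line at 1. IMA1, IMA2 and IMA3, at 0.98, 0.91 and 1.04, lie above nearly all genes of their level, while FIT and BTS, at 0.08 and 0.14, lie within the grey cloud.

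Root markers would follow the share of root in the harvest. Their median range was near that of low genes, but above that of nuclear genes averaging 1 FPKM or more. Of 20 such genes, 11 were lowest in library 2, against 44.2% of nuclear genes averaging 1 FPKM or more and 35.2% of all. Library 3 was highest in 7, against 39.1% and 32.1%, and library 1 in 10. Library 3 was above library 2 in 14 of the 20, against 59.6% and 48.2%. The median of this difference was 0.097, beside 0.03 for nuclear genes averaging 1 FPKM or more. None had a range above 1, against 0.651% of nuclear genes averaging 1 FPKM or more. Their median range was 0.27 at a median level of 1.34 FPKM, beside 0.25 for nuclear genes from 0.5 to 3 FPKM. The list also holds genes above and below that class. For the 11 root markers averaging 1 FPKM or more the median range was 0.28, beside 0.16 for nuclear genes at that level. A ratio of highest to lowest library above 2 was found in 4 of the 20, against 13.7% of nuclear genes from 0.5 to 3 FPKM. BRN2, at 0 in library 3, has no ratio and was left out of this count, while the share counts such genes. With a pseudocount of 0.1, 4 had a range above 1, against 1.71% of nuclear genes averaging 1 FPKM or more. Some of these 4 average less, such as BRN2 at 0.0585 FPKM, so the share is of genes at other levels. PYK10, a root beta-glucosidase, had 1009 ± 52.9 FPKM. The summed level of the root markers was 1063, 996 and 1106 FPKM in libraries 1, 2 and 3, and 50.4, 42.7 and 47.04 without PYK10. Library 2 was lowest in both sums. Shoot markers summed to 38974, 36007.5 and 36052 FPKM in libraries 1, 2 and 3, with libraries 2 and 3 close together. The sum over all nuclear genes was 615490, 588720 and 602799 FPKM. No root marker was listed at 0 in all libraries, and the lowest was BRN2, a root cap factor, at 0.0585 FPKM. EXPA18, a root hair expansin, had the largest range, 0.67, at 1.61, 0.641 and 1.20 FPKM, and PHT1;1, a phosphate transporter, had 9.87, 6.91 and 8.06. Of 9 shoot markers, RCA, for Rubisco activase, had the largest range, 0.197, and 8 were highest in library 1. The share of nuclear genes highest in library 1 or in library 2 is not given here, so nothing is read from counts of genes highest in either. CAB1, a chlorophyll-binding antenna protein, and RBCS1A, a Rubisco small subunit, had 14284 ± 737 and 6896 ± 241 FPKM, and the protodermal gene PDF1 was lowest at 87.6 ± 4.24. Whether the share of root plays a part in the values of the iron genes was not tested.

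On the log2(FPKM + 1) scale, the other lists of iron genes had median ranges near that of nuclear genes averaging 1 FPKM or more. Of the 14 genes that act with FIT in acquisition, 0 had a range above 1, against 0.651% of those nuclear genes. Their median range was 0.16, beside 0.16. Only 7 of the 14 average 1 FPKM or more, and the scale understates differences of the rest. Library 3 was highest in 5, against 39.1% of nuclear genes averaging 1 FPKM or more and 32.1% of all, and library 1 in 6. Leaving out genes with a library at 0, 2 of the 14 passed the FPKM ratio of 2. The share was 1.98% of nuclear genes averaging 1 FPKM or more and 13.7% of those from 0.5 to 3 FPKM. These 2 genes average 0.120 and 0.165 FPKM, below both classes, so the shares are of genes at other levels. AHA2, a root proton pump, led them with 99.96, 88.5 and 94.1 FPKM, and NRAMP1, a metal transporter, had 17.8, 15.2 and 14.6. F6'H1, an enzyme of coumarin synthesis, had the largest range, 0.33, with library 3 lowest at 2.49 FPKM and libraries 1 and 2 at 3.38 and 3.25. S8H, another coumarin enzyme, was lowest above 0 at 0.0372 FPKM, and MYB72 was listed at 0 in all libraries.

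Of the 14 other iron regulators, IMA3 alone had a range above 1, against 0.651% of nuclear genes averaging 1 FPKM or more. The median range of the list was 0.16, beside 0.16. With no pseudocount, 2 of the 14 passed the FPKM ratio of 2, against 1.98% of nuclear genes averaging 1 FPKM or more and 13.7% of those from 0.5 to 3 FPKM. IMA3 is among the 2, in the class from 5 to 50 FPKM, where 0.467% passed. The other averages 0.159 FPKM, below all of these classes. ILR3, one of the bHLH factors that act upstream of subgroup Ib, had 46.6, 52.6 and 49.8 FPKM in libraries 1, 2 and 3. bHLH115, a target of BTS, had 26.2, 23.1 and 24.98, PYE 8.44, 7.43 and 7.48, and bHLH19, the lowest, 0.0487 ± 0.00169 FPKM. Of the whole list, 7 were highest in library 3, against 39.1% of nuclear genes averaging 1 FPKM or more, 4 in library 2 and 3 in library 1. Library 3 was above library 2 in 9, against 59.6%. ILR3, bHLH115, PYE and bHLH19 were among those not highest in library 3.

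Of the 19 iron distribution genes, 0 had a range above 1, against 0.651% of nuclear genes averaging 1 FPKM or more. Library 2 was lowest in 15, against 44.2% of those nuclear genes. Library 3 was above library 2 in 17, against 59.6%, by a median of 0.12 over the list, beside 0.03. FRO6, a ferric reductase gene, and OPT3, a phloem iron transporter gene, led with 82.7 ± 1.92 and 49.7 ± 3.55 FPKM. NAS2, a nicotianamine synthase gene, had the largest range, 0.53, at 0.130, 0 and 0.440 FPKM, and the vacuolar transporter gene VIT1 was lowest at 0.057. Of the 9 genes for iron storage, 0 had a range above 1, against the same 0.651%. The ferritin genes FER1 and FER3 had 91.2 ± 2.34 and 27.9 ± 0.605 FPKM, and FER2 had both the lowest level above 0 and the largest range, at 0.599, 0.808 and 1.04 FPKM. VTL3 and VTL4 were listed at 0 in all libraries.

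**Figure D5:**
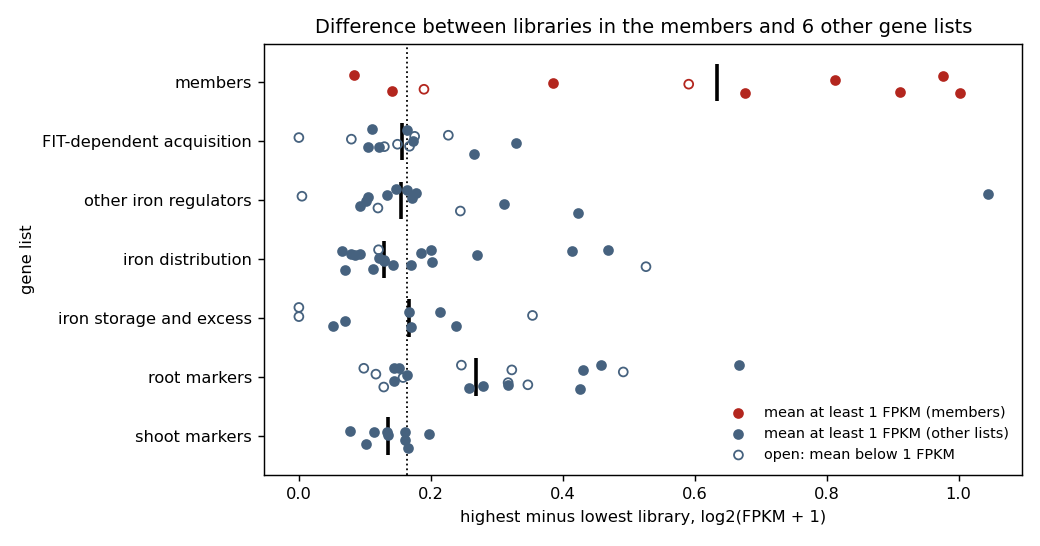
Difference between the highest and lowest library in log2(FPKM + 1) for each gene of the members and of 6 other lists, with filled symbols for genes averaging 1 FPKM or more, a black bar for the median of each list and a dotted line at 0.16, the median of nuclear genes at that level. The median is 0.63 for the 10 members, 2 of which average less, and between 0.13 and 0.27 for the other lists, and IMA3 is the one other gene beyond 1.

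The genes whose values across the 3 libraries were most like those of IRT1 included IMA1. Likeness was the Euclidean distance between deviations from each gene's own mean in log2(FPKM + 1), over 3 libraries and 17677 other nuclear genes averaging 1 FPKM or more. The nearest 5 were AT5G03550, a gene of the MATH domain family, AT2G23110, of the late embryogenesis abundant group, IMA1, the glutathione transferase gene GSTU24 and AT2G18190, of an ATPase-like superfamily. Their distances were 0.013, 0.034, 0.051, 0.053 and 0.08. IMA3 stood at rank 20, bHLH39 at rank 75 and IMA2 at rank 272. bHLH101, bHLH38, BTS and FIT stood at ranks 798, 1937, 4189 and 6782. FRO2 and bHLH100 were below the filter and have no rank. With 3 points per gene, such ranks describe these libraries only. IRT1 and the other members were chosen for differences between these same libraries, so nothing is read from a near rank of a member.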

How the data were processed

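Expression was measured by RNA-seq in 3 libraries of 1 group. Per the labels' protocols, ribosomal RNA was removed from total RNA and strand-specific libraries were sequenced. The authors deposited 1 value for each of 36172 transcripts per library, taken to be FPKM, since Cufflinks 2.1.1 is among the tools in the submitters' processing notes and the values are not whole and sum to 2064650, 2000110 and 1957870. The notes also name TopHat2 2.0.9 and TAIR10. No annotation, filter or scaling step is stated in those sources.

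Transcripts with a TAIR identifier (35337) were summed to 27374 loci, 27164 of them nuclear. Differences are on log2(FPKM + 1), with a range above 1 counted, and 17678 nuclear genes averaging 1 FPKM or more served as background. Level differences were tested with exact sign-flip permutation. The members and all 6 other lists (85 genes, all found) were chosen with earlier results of these data known. From each list the 2 highest genes, the lowest above 0 and the one with the largest range are named, plus IMA3, PYE, IRT2, neighbouring genes and 5 genes most like IRT1.

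Read depth is not stated. Low values of transcripts over 1000 bases stepped as if each library held about 18, 17.35 and 18.65 megafragments, with 100 bases subtracted from each length, but only 29.5%, 28.1% and 30.9% were whole multiples within 0.05 (chance gives 10%), so fragment numbers are approximate, errors from them cover counting only, and no count test was made. At most 1 value above 0 was equal between any pair of libraries. Coordinates, names and sequences are from RefSeq TAIR10.1 (all 10 members matched by locus), while the notes name TAIR10. Second copies were searched with BLAST+ 2.17.0 and coding sequences aligned with Biopython 1.88. The calculation of ranges was tested on simulated data. Alternatives were other pseudocounts, scalings, the highest transcript in place of the sum, no filter, and leaving out each library.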

Additional observations from a re-analysis of the deposited data

How the results depend on the processing

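The count of members with a range above 1 depended on the processing, and IRT1 lay at 1.002 and IMA1 at 0.98. It was 1 as reported, 5 with a pseudocount of 0.1, 3 with 0.5, and 0 with median ratio scaling, with scaling to the nuclear sum and with the highest transcript per locus. Leaving out 1 library gave 0 to 1, with 0 without library 2 or library 3. The median range of the members was 0.63, and 1.01 with a pseudocount of 0.1. Leaving out libraries gave 0.13 (without library 3) to 0.58 for all members and 0.29 (without library 2) to 0.68, against 0.74, for those averaging 1 FPKM or more. The share of nuclear genes with a range above 1 was 0.651%, 1.71% with a pseudocount of 0.1, 1.02% with 0.5 and 0.267% to 0.424% with 1 library left out. The cause of these shifts was not tested, except that a range over 2 libraries cannot be larger for the same gene. Counts of members higher in library 3 than in library 2 (10) and highest in library 3 (9), alternatives chosen after seeing the data, stayed at these numbers with either scaling and with the highest transcript. The mean of each of the 7 differences in level kept its sign under all 8 alternatives (56 of 56 values), but with the highest transcript per locus FRO2 minus IRT1 was -0.06 (exact p = 0.75), no longer of 1 sign in all libraries, and IRT1 minus IRT2 was 0.41. A pseudocount of 0.1 gave -0.92 and 1.26 for these pairs and -0.35 for bHLH39 minus bHLH38, which ranged from -0.37 (without library 1) to -0.12 with 1 library left out. With a pseudocount of 0.1, 1 gene of the acquisition list, 2 of the regulators, 1 of the distribution list and 4 root markers had a range above 1. IMA3 no longer passed 1 with the highest transcript per locus or without library 2 or 3. No paired analysis was possible because there is 1 group. Depth limits bHLH38, bHLH39 and bHLH100 most, with as few as 7 estimated fragments.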

Other observations

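The genes next to the members did not share 1 order of libraries. Of 16 neighbouring protein-coding genes that are not members, 4 were highest in library 3, against 32.1% of all nuclear genes. Library 1 was highest in 5 and library 2 in 3, and 4 (ATCHX7, AT3G18282, AT3G18291 and AT1G47390) were listed at 0 throughout. Their median range was 0.13. Beside IRT1, IRT2 ranged by 0.15 and RING (AT4G19700) by 0.35. Beside FRO2, AT1G01570 had 1.36, 1.41 and 1.63 FPKM in libraries 1, 2 and 3, and FRO1, a second reductase gene, had 0.0258, 0.0537 and 0.025. PIP5K4, which overlaps bHLH38 on the other strand, had 1.25, 0.864 and 0.717 FPKM, with library 3 lowest where bHLH38 was highest. EDA7, next to bHLH39, had 3.14, 3.07 and 3.53 FPKM. GLU1, which overlaps bHLH101 on the other strand, had 209, 202 and 195 FPKM, and AT5G04160 on its other side 5.76, 5.99 and 6.32. AT2G41231, next to bHLH100, had the largest range, 0.94, at 1.22, 0.157 and 0.439 FPKM, and AT2G41250 had 17.5, 13.2 and 16.9. AT1G47410, next to IMA1, had 2.89, 4.10 and 2.77 FPKM, with library 2 highest where IMA1 was lowest. AT2G28150, next to FIT, ranged by 0.06.

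The short transcript of IMA3 differed more than the long one, as for IRT1. AT2G30766.2 had 5.48, 1.26 and 5.83 FPKM in libraries 1, 2 and 3, a range of 1.595, and AT2G30766.1 had 20.7, 12.9 and 24.5, a range of 0.87.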
